A study of Mus musculus with 13 samples.

Results

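The genes described here encode 5 secreted plasma proteins of the liver: transthyretin (Ttr), fetuin-A (Ahsg), fetuin-B (Fetub), ceruloplasmin (Cp) and the precursor of alpha-1-microglobulin and bikunin (Ambp). They were chosen by name, as the features of the array whose platform gene symbol is exactly one of these. All 5 were found, each by a single feature, among 19087 genes measured. RNA was measured on 13 one-colour microarrays of cultured mouse cells. All cells lacked p19Arf and came from mice of strain C57BL/6-129, so the controls carried the deletion too.

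Tail-tip fibroblasts (TTF, 3 arrays) and embryonic fibroblasts (MEF, 1 array) were grown in DMEM with 10% serum and sampled at day 42 after isolation. For the induced hepatocyte-like cells (iHep, 4 arrays), TTF had received lentiviruses for 3 liver-enriched transcription factors, which the labels do not name. Each iHep array held the cells of a single epithelial colony at day 21 of induction. A transduced TTF culture in which fibroblasts and epithelial cells were still mixed (TTF + 3TF, 1 array) was also sampled at day 21. Primary hepatocytes (4 arrays) had been cultured for 21 days and were dividing, so they stand for cultured and not for freshly isolated liver cells. iHep and hepatocytes grew in modified Block's medium, so medium and day went with the group in each comparison with TTF and cannot be told apart from it. No label ties replicates to different animals or cultures, so p-values measure only the scatter of these arrays, possibly a technical one.

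Hepatocytes make most of the proteins of blood plasma and secrete them. Transthyretin carries thyroxine and, through retinol-binding protein, vitamin A. The fetuins belong to the cystatin superfamily: fetuin-A keeps calcium phosphate in solution and fetuin-B inhibits proteases of the astacin family. Ceruloplasmin carries copper and oxidises iron. The Ambp precursor is cut into a heme-binding lipocalin, alpha-1-microglobulin, and a Kunitz protease inhibitor, bikunin, which is joined to the heavy chains of the inter-alpha-trypsin inhibitor family. In liver, genes of this kind, Ttr among them, are known targets of HNF, FOXA and C/EBP factors.

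Promoter sequences are shown for Ahsg, Fetub and Ambp, the members whose RefSeq promoter window begins at the gene's annotated start. The first pair are neighbours with very different responses, and Ambp is the member that stayed lowest in iHep relative to hepatocytes. Each run holds the 250 bases before the start on the gene's strand, with capitals at matches to the motifs searched (RefSeq, build GRCm38.p6).
Ahsg, chr16:22891765-22892014, + strand: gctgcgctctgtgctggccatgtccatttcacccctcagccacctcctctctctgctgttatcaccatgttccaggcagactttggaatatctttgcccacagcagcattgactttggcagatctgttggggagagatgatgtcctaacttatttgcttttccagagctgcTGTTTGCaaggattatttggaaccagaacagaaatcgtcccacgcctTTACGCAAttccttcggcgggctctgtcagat
Fetub, chr16:22918132-22918381, + strand: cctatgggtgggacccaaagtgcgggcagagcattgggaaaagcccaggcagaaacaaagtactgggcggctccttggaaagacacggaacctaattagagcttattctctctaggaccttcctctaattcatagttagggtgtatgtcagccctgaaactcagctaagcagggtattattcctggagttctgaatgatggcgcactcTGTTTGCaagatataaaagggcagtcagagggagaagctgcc
Ambp, chr4:63154173-63154422, - strand: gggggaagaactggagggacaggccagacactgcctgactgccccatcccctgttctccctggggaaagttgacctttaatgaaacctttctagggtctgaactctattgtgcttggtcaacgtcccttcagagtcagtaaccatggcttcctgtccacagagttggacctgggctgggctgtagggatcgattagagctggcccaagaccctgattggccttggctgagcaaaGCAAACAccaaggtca

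Each window was searched on both strands for 5 motifs. For FOXA factors the letters were TGTTTNC, and for C/EBP factors they were TTGCNNAA. An HNF1 half-site was searched as GTTAAT. The GATA factors were represented by the letters AGATAA. For HNF4 the search used CAAAGTCCA. The FOXA letters occurred once in each of the 3 windows. They began 79 bases before the start of Ahsg and 42 before that of Fetub, and on the opposite strand their match began 16 bases before the start of Ambp. Of 32817 windows of the same length, 17.8% held this motif. Ahsg also held a C/EBP match on the opposite strand, beginning 32 bases before the start and not overlapping the FOXA match, against 9.6% of windows. The GATA, HNF1 and HNF4 letters did not occur in these 3 windows, against 10.0%, 6.4% and 0.4% of all windows. These matches are a description of letters and were not tied to binding here.

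Levels below are log2 intensities after subtracting the log2 of each array's 75th percentile, so that 0 is the intensity of that percentile. A value counted as above the limit of measurement when it exceeded 3 times the lowest intensity among the features listed around it. A gene with several features counted as above the limit on an array when any of them was. Its level is the mean of all of them, so that level can itself lie near or under the limit. The 75th percentile lay between 1140 and 2260 on the arrays, and 63.1% (iHep replicate 2) to 83% (iHep replicate 3) of features were above the limit. Cdkn2a, the locus of p19Arf, lay between -3.69 and 2.32 over all arrays. The place of its 10 features in or outside the deletion is unknown here, so these levels do not test the genotype. Summed levels of 8 measured hepatocyte markers were 7.19 to 8.62 on iHep and 6.49 to 8.33 on hepatocyte arrays, against -1.54 to -0.09 on TTF. The sum is carried by the brightest features, and its members did not all move with it. Apoa2 lay at -5.41 to -3.28 in iHep, -5.08 to -3.77 in TTF and -3.71 to 2.23 on hepatocyte arrays. Apob in iHep (-3.82 to -1.82) was below every hepatocyte array (-0.28 to 2.38). Apoa1 went the other way, with iHep (2.85 to 3.69) above every hepatocyte array (-1.59 to 2.13). Summed levels of 7 fibroblast markers were 7.73 to 8.26 on TTF, 0.09 to 4.42 on iHep and 3.02 to 7.54 on hepatocyte arrays. RNA of these marker genes was thus measured in the cultures labelled hepatocyte as well, and which cells made it was not tested. The hepatocyte arrays were not uniform. Their fibroblast sums were 3.76 and 3.02 on replicates 1 and 2 and 7.54 and 7.13 on 3 and 4. Apoa2 was split too (1.42 and 2.23 against -3.71 and -2.51), while Alb was not (5.07 and 5.17 against 4.59 and 7.14). Differences from hepatocytes use the mean of these 4 arrays. The iHep arrays formed pairs: rank correlations over features were 0.95 between replicates 1 and 2 and 0.978 between 3 and 4, against 0.886 to 0.919 across the pairs. For the 5 genes, differences that moved by over 1.5-fold without a pair are given with and without it. For the partner genes below, differences are given with all 4 colonies only. Some of these genes also differed between the pairs, such as Itih4 (-0.73 and -1.32 on replicates 1 and 2, 2.25 and 1.56 on 3 and 4).

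All 5 genes were higher in iHep and in cultured hepatocytes than in TTF, and no iHep or hepatocyte array overlapped a TTF array for any of them. The increases in iHep ranged from 6.78-fold for Fetub to at least 5280-fold for Ahsg, a bound that depends on which colonies are included. Between iHep and hepatocytes, Ambp alone was called, at 185-fold lower in iHep. Ttr and Ahsg differed among the colonies by far more than the median gene, with the colony pairs in opposite order. A gene was called at an adjusted p under 0.05 (Benjamini-Hochberg over all genes, limma) and a change of at least 2-fold. Over all genes 6.86% were called higher in iHep than in TTF and 7.47% in hepatocytes than in TTF, while 6.52% and 4.91% were called lower. On every array, 13.5% and 18.2% of genes were higher and 12.8% and 14.9% lower. The split of calls depended on the scaling: hepatocytes against TTF gave 1426 higher and 937 lower genes, against 1129 and 1159 after quantile normalization and 996 and 1923 after a shift by the median. For iHep against hepatocytes the split was 1192 higher and 1432 lower, against 1832 and 1008 after a shift by the median. The direction of each called difference of the 5 genes was the same under these scalings.

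**Figure D1:**
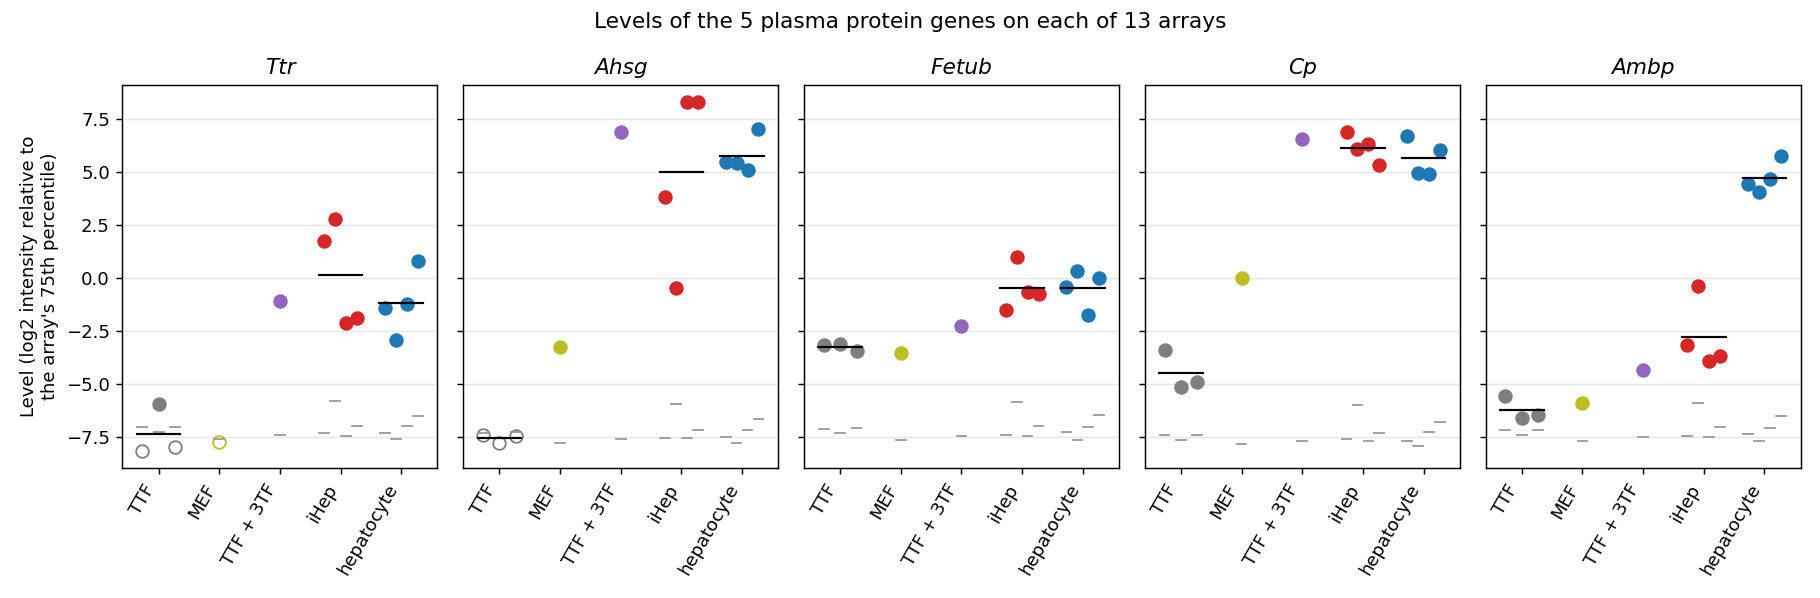
Level of each gene (log2, with 0 at the 75th percentile of intensities) on every array, grouped by cell type; black bars are group means, grey ticks the limit of measurement at that feature, and open circles lie under it. All iHep and hepatocyte points lie above all TTF points for each gene, while Ambp in iHep (-3.93 to -0.38) lies far below hepatocytes (4.05 to 5.77).

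Ttr is the gene of transthyretin, the hormone and vitamin A carrier described above. In TTF its level was -8.17, -5.98 and -8.00 on replicates 1 to 3, and only replicate 2 was above the limit. The MEF array was also under the limit at -7.74, whereas the TTF + 3TF culture lay at -1.10. The iHep colonies lay at 1.75 and 2.79 (replicates 1 and 2) and at -2.12 and -1.87 (replicates 3 and 4). The hepatocyte arrays lay at -1.42, -2.91, -1.25 and 0.79, highest on replicate 4. Ttr therefore lay above every hepatocyte array on iHep replicates 1 and 2 and within the hepatocyte range on 3 and 4.

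Ttr was higher by 7.52 ± 1.27 in log2 (SE, n = 4 and 3, adjusted p = 0.0028 in limma) in iHep than in TTF. In hepatocytes it was higher than in TTF by 6.19 ± 1.27 (SE, n = 4 and 3, limma adjusted p = 0.01). Since 1 of 3 TTF arrays was above the limit, these sizes depend on values near it. The difference of iHep from TTF was 5.39 without iHep replicates 1 and 2 and 9.66 without 3 and 4. It was 6.64, 8.28 and 8.19 without iHep replicate 2, 3 or 4 alone and 8.22 without TTF replicate 2, each past the threshold. The difference of hepatocytes from TTF was 6.89 without TTF replicate 2 and 5.52 without hepatocyte replicate 4, also past it. Between iHep and hepatocytes the difference was 1.34 ± 1.18 (SE, n = 4 and 4, limma adjusted p = 0.48), with a 95% interval from -1.26 to 3.93, and the groups overlapped. Without iHep replicates 3 and 4 it was 3.47 (limma adjusted p = 0.046) and past the threshold, and without replicates 1 and 2 it was -0.80 (limma adjusted p = 0.58).

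Ahsg encodes fetuin-A, which is made by hepatocytes from fetal life on. No TTF array was above the limit, with levels of -7.44, -7.78 and -7.49. The MEF array was above it at -3.28, and the TTF + 3TF culture stood at 6.87. The iHep colonies lay at 3.84, -0.49, 8.29 and 8.30 on replicates 1 to 4, and the hepatocyte arrays at 5.46, 5.43, 5.10 and 7.06. On iHep replicates 3 and 4 Ahsg was thus above every hepatocyte array, and on replicates 1 and 2 below every one. On replicates 3 and 4 the deposited intensities were 587000 and 581000, where the brightest feature of the array was 693000 and 707000, so differences at the top of the range may be compressed.

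Ahsg was at least 5280-fold higher in iHep than in TTF (limma adjusted p = 0.00089, n = 4 and 3) and at least 9050-fold higher in hepatocytes (limma adjusted p = 0.00084, n = 4 and 3). Such bounds set the mean of the brighter group against the limit, or the gene's own level where that is higher, on the dimmer arrays. The fitted difference of iHep from TTF, which is no bound, was 12.55, and its size depended on the colonies. It was 15.86 without iHep replicates 1 and 2, 9.24 without 3 and 4, 14.38 without replicate 2 alone and 11.45 without replicate 3 or 4 alone, each past the threshold. Between iHep and hepatocytes the difference was -0.78 ± 1.62 (SE, n = 4 and 4, limma adjusted p = 0.79), with a 95% interval from -4.36 to 2.81. This mean joins colonies on both sides of the hepatocyte range. Without iHep replicates 1 and 2 Ahsg was higher in iHep by 2.53 (limma adjusted p = 0.0084), and without replicates 3 and 4 the difference was -4.09 (limma adjusted p = 0.031). Without replicate 2 alone it was 1.05 (limma adjusted p = 0.5).

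Fetub encodes fetuin-B, the second liver fetuin, and its differences from TTF were the smallest of the 5. TTF lay at -3.17, -3.11 and -3.47, all above the limit, and the MEF array at -3.53. The TTF + 3TF culture was at -2.25. The iHep colonies lay at -1.51, 0.97, -0.68 and -0.74 and the hepatocyte arrays at -0.45, 0.33, -1.76 and -0.03. The iHep and hepatocyte values overlapped over most of their range, and both lay above every TTF array.

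The increase of Fetub over TTF was 2.76 ± 0.60 (SE, n = 4 and 3, limma adjusted p = 0.011) in iHep and 2.78 ± 0.60 (SE, n = 4 and 3, limma adjusted p = 0.013) in hepatocytes. Without TTF replicate 3 both missed the threshold, at 2.65 (limma adjusted p = 0.051) and 2.67 (limma adjusted p = 0.058). The difference between iHep and hepatocytes was -0.02 ± 0.55 (SE, n = 4 and 4, limma adjusted p = 0.99), with a 95% interval from -1.24 to 1.21 that leaves room for a 2-fold difference either way.

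Ahsg and Fetub lie side by side on chromosome 16. In the RefSeq gene table they are followed, with no other protein-coding gene between them, by Hrg, Kng2 and Kng1, which encode further cystatin-superfamily plasma proteins, histidine-rich glycoprotein and the kininogens. Kng1 was higher in iHep than in TTF by 8.20 ± 0.59 (SE, limma adjusted p = 1.4e-05) and Kng2 by 7.18 ± 0.69 (SE, limma adjusted p = 9.7e-05, 1 of 3 TTF arrays above the limit). As near copies of each other, these 2 kininogen genes may not be fully told apart by their features. Hrg, added here as a neighbour after its values were seen, was not called at 1.94 ± 0.61 (SE, limma adjusted p = 0.062).

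On the iHep arrays Kng2 was at -0.08 and -0.09 on replicates 1 and 2 and at -2.12 and -1.55 on 3 and 4, so the first pair was higher, as for Ttr and unlike Ahsg. Kng1 lay between 2.09 and 4.20 in iHep and between 0.03 and 2.20 in hepatocytes, and was called higher in iHep by 1.95 ± 0.54 (SE, n = 4 and 4, limma adjusted p = 0.036).

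**Figure D2:**
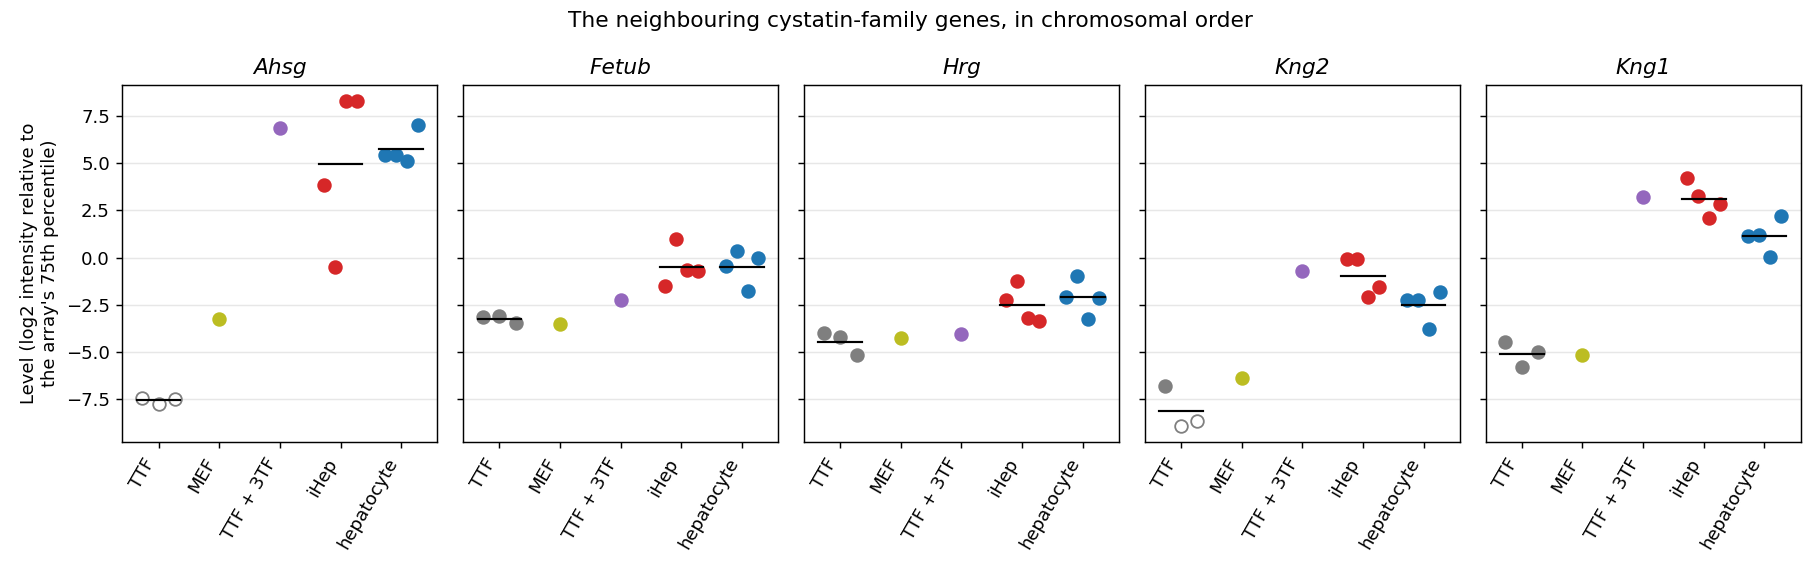
Levels (log2, with 0 at the 75th percentile of intensities) of 5 adjacent genes of the cystatin superfamily on chromosome 16, from Ahsg to Kng1 in their order on the chromosome; points are arrays, black bars group means, and open circles lie under the limit of measurement. The iHep points of Ahsg spread from -0.49 to 8.30, while those of its neighbour Fetub spread from -1.51 to 0.97.

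Cp encodes ceruloplasmin, the main copper protein of plasma. TTF lay at -3.41, -5.14 and -4.91, all above the limit. The MEF array was higher at -0.01. The TTF + 3TF culture reached 6.55. The iHep colonies lay at 6.91, 6.07, 6.33 and 5.34 and the hepatocyte arrays at 6.69, 4.96, 4.90 and 6.05. Cp thus had the narrowest range of the 5 genes in iHep, and 3 of the 4 colonies lay within the hepatocyte range.

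The increase of Cp over TTF was 10.65 ± 0.57 (SE, n = 4 and 3, limma adjusted p = 2.5e-06) in iHep and 10.14 ± 0.57 (SE, n = 4 and 3, limma adjusted p = 3.6e-06) in hepatocytes, with 1600-fold and 1130-fold as linear values. Between iHep and hepatocytes the difference was 0.51 ± 0.53 (SE, n = 4 and 4, limma adjusted p = 0.56), with a 95% interval from -0.66 to 1.68.

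Ambp encodes the joint precursor of alpha-1-microglobulin and bikunin. TTF lay at -5.60, -6.62 and -6.50 and the MEF array at -5.93, all above the limit but by no more than 3.47 times. The TTF + 3TF culture lay at -4.36. The iHep colonies lay at -3.18, -0.38, -3.93 and -3.70, with replicate 2 highest. The hepatocyte arrays lay at 4.45, 4.05, 4.69 and 5.77. Every iHep colony was above every fibroblast array and far below every hepatocyte array.

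In hepatocytes Ambp was higher than in TTF by 10.98 ± 0.78 (SE, n = 4 and 3, limma adjusted p = 1.6e-05). In iHep the increase was 3.44 ± 0.78 (SE, n = 4 and 3, limma adjusted p = 0.013), and it missed the threshold without TTF replicate 2 (limma adjusted p = 0.06) or 3 (limma adjusted p = 0.059). This increase was 2.64 without iHep replicate 2, 2.42 without replicates 1 and 2, and 4.46 without 3 and 4, each past the threshold. From hepatocytes iHep differed by -7.53 ± 0.72 (SE, n = 4 and 4, limma adjusted p = 0.00013), or 185-fold lower, with a 95% interval from -9.12 to -5.95. Without iHep replicates 1 and 2 this difference was -8.55, without replicates 3 and 4 it was -6.51, and without replicate 2 alone it was -8.34, each past the threshold.

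Over all genes 7.5% were called lower and 6.25% higher in iHep than in hepatocytes, against 1 and 0 of the 5 genes here. On every array 11.2% of all genes were lower in iHep, as Ambp was, and 9.69% were higher. In these bulk cultures fewer cells of a type and less RNA per cell cannot be told apart.

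**Figure D3:**
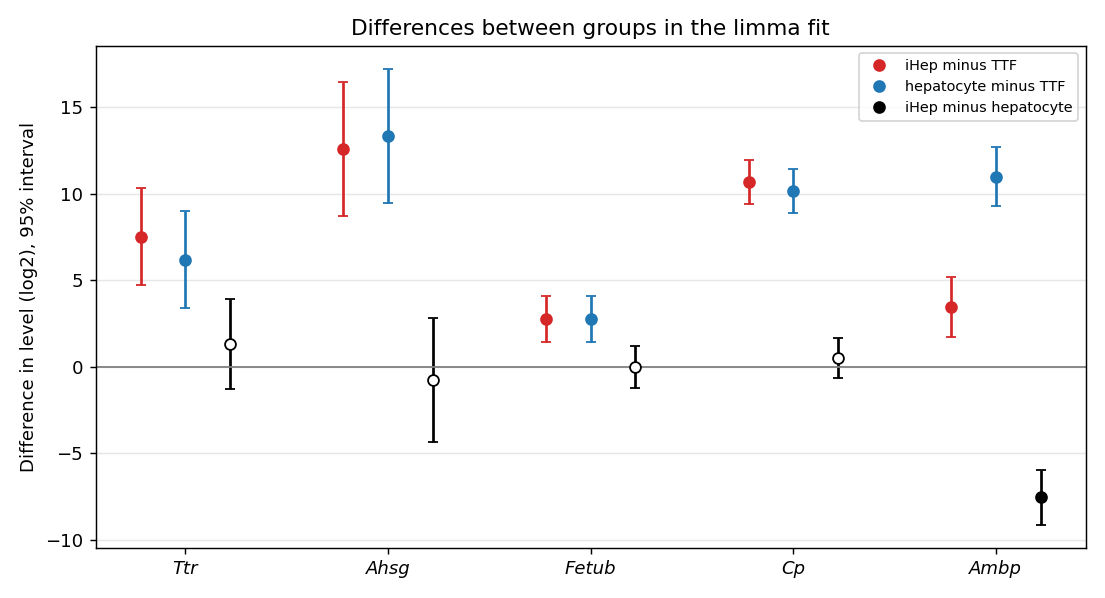
Difference in level (log2) between the groups for each gene from the limma fit, with 95% intervals; filled points were called and open points were not. The differences from TTF are positive for all 5 genes, and of the differences between iHep and hepatocytes only that of Ambp, at -7.53, was called.

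The 2 cultures with 1 array each allow no test. On the MEF array Cp was 22.2-fold above the TTF mean and Ahsg at least 17.2-fold above TTF, both outside the TTF range, while Fetub (-0.28) and Ambp (0.31) differed from the TTF mean by less than the 4-fold set here. Ttr was under the limit on the MEF array, so no difference is given. Of all genes, 4.02% were higher and 2.04% lower on this array by a difference of 4-fold or more from the mean of TTF and a value beyond its range. Summed levels of 4 epithelial markers were 5.27 on the MEF array, above the TTF range of -3.74 to -0.53, and the part of other cells in the values of Cp and Ahsg was not tested.

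In the TTF + 3TF culture Ttr, Ahsg and Cp passed the same rule and Fetub and Ambp did not, where 6.49% of all genes were higher and 3.67% lower. All 3 lay within the range of the picked colonies, and Ttr stood between the colony pairs. Fetub, at 2-fold above the TTF mean, and Ambp, at 3.69-fold, were below every colony. The fibroblast markers summed to 6.13 in this culture, below the TTF range, and its share of converted cells was not measured.

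Between colonies, the standard deviation of the level was 4.21 for Ahsg, 2.50 for Ttr, 1.64 for Ambp, 1.04 for Fetub and 0.65 for Cp (n = 4). On the hepatocyte arrays the same values were 0.88, 1.52, 0.73, 0.91 and 0.87. The median over all genes was 0.615 in iHep and 0.465 in hepatocytes. Of all genes, 0.351% had a larger spread between colonies than Ahsg, 2.71% than Ttr and 7.45% than Ambp. For Fetub and Cp these shares were 19.1% and 46.7%. Among the 13664 genes above the limit on all iHep arrays the median was 0.513. Of these genes, 16.8% had a larger spread than Fetub and 36.8% than Cp. Cp thus lay close to the median of all genes and somewhat above that of the genes above the limit. The highest colony exceeded the lowest 440-fold for Ahsg, 30.2-fold for Ttr, 11.7-fold for Ambp, 5.56-fold for Fetub and 2.98-fold for Cp.

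The order of the colonies differed from gene to gene. Replicate 2 was highest for Ttr, Fetub and Ambp and lowest for Ahsg. Without this colony the standard deviation was 0.39 for Ambp, 0.46 for Fetub and 2.57 for Ahsg, while that of Ttr was still 2.17. Replicate 2 also had the highest limit of measurement, at about -5.9 for these features, and the fewest features above it. All 5 genes were at least 44.3 times above the limit on that array. Among the hepatocyte arrays, replicate 4 was highest for Ttr, Ahsg and Ambp.

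**Figure D4:**
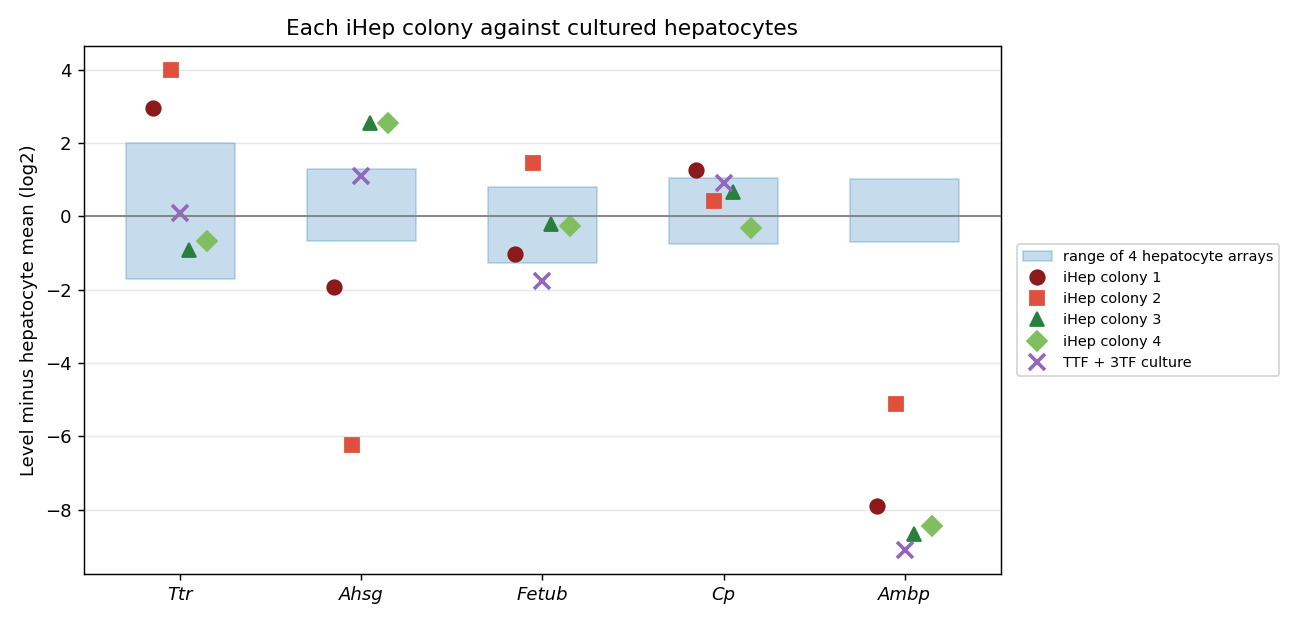
Level of each gene on each iHep array and in the TTF + 3TF culture, minus the hepatocyte mean (log2); blue boxes span the 4 hepatocyte arrays. Colonies 1 and 2 lie above the box for Ttr and below it for Ahsg, colonies 3 and 4 lie inside it for Ttr and above it for Ahsg, and all colonies lie below it for Ambp.

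**Figure D5:**
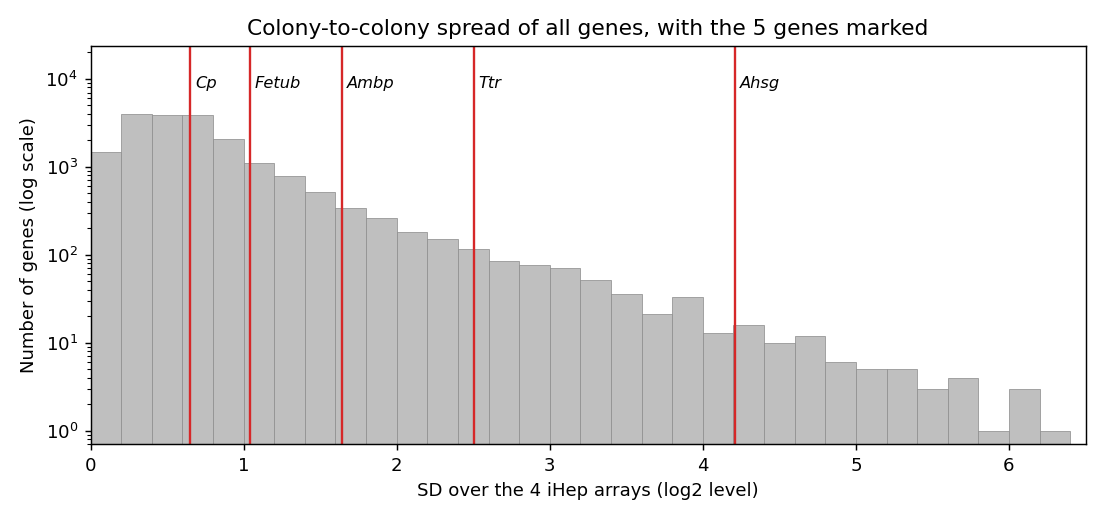
Number of genes (log axis) by the standard deviation of their level over the 4 iHep arrays, with red lines at the 5 genes. Cp (0.65) lies near the median of 0.615 and Ahsg (4.21) in the far tail.

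Markers of other cells differed between the same colonies. The fibroblast sum was 0.94 and 0.09 on iHep replicates 1 and 2 and 3.85 and 4.42 on 3 and 4. The epithelial sum was 5.51 and 6.44 against 8.16 and 8.09. The sum of 4 intestinal markers was 3.45 and 4.12 against 5.87 and 5.51, all above the hepatocyte range of -2.68 to 1.18. Of these markers, Lgals4 had the order of the sum (1.32 and 2.96 against 5.72 and 5.36), while Vil1 (3.00 and 2.88 against 2.44 and 2.07) and Cdh17 (-2.42 and -0.36 against -5.34 and -3.96) had the opposite order, and Cdh17 overlapped the hepatocyte arrays (-6.92 to -1.66). The hepatocyte sum was 8.15 and 7.19 against 8.47 and 8.62. Trf followed this order (5.35 and 1.25 against 8.18 and 8.28), while Fgb (7.82 and 6.86 against 5.45 and 5.83), Apoh (2.81 and 3.00 against -2.80 and -2.68), Hnf4a and Apoa2 were higher on the first pair. The part of these differences in the values of Ttr and Ahsg was not tested.

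The genes most like each member over the 13 arrays were found by Pearson's correlation of the level among 17620 genes. Since the arrays fall into groups, r follows mainly the group differences, and it is given as a description. Nearest to Ttr were Spp2, a secreted phosphoprotein gene (r = 0.982), Afp, for the fetal plasma carrier alpha-fetoprotein (0.971), and Cfi, for complement factor I (0.96). Nearest to Ahsg were Trf, for the iron carrier transferrin (0.972), the membrane protein gene Mal2 (0.956) and Cdh1, for the epithelial adhesion protein E-cadherin (0.956).

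These genes were chosen for their likeness over the same arrays, so their order among the colonies is no separate evidence. Spp2 lay at 2.16 and 3.36 on iHep replicates 1 and 2 and at -3.99 and -3.31 on 3 and 4. Trf lay at 5.35, 1.25, 8.18 and 8.28, lowest on replicate 2, as Ahsg did. Nearest to Cp were Lsr, a lipoprotein receptor gene of tricellular junctions (0.987), Clu, for the secreted chaperone clusterin (0.986), and C4bp, for a complement inhibitor (0.979).

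Nearest to Ambp was Igfbp1, for a liver-secreted binding protein of insulin-like growth factors (0.987). Its level was 4.06 to 7.02 on hepatocyte arrays and -7.24 to -2.95 on iHep arrays, a pattern that its choice by likeness fixed. Olfr1179, an olfactory receptor gene (0.973), and Itgb6, an integrin gene (0.971), followed. Olfr1179 was under the limit on every array but those of hepatocytes, where it lay at only -6.98 to -6.40. Itgb6 lay at -5.35 to -4.28 on hepatocyte arrays and -8.48 to -7.36 on the others, under the limit on TTF replicate 3 and iHep replicate 2. The nearest to Fetub were less close: Nprl2 (0.941), Miox, for a kidney oxygenase of inositol (0.921), and Pars2 (0.918).

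The partners of each protein were described from lists chosen with earlier results of these data known. The counts stand beside shares over all genes of 6.86% called higher and 6.52% lower in iHep than in TTF. For iHep against hepatocytes the shares were 6.25% and 7.5%, and 7.47% were higher in hepatocytes than in TTF. For thyroxine and retinol carriage, 4 of 9 measured genes were called higher and 0 lower in iHep than in TTF, with a median difference of 2.45 against 0.07 over all genes. Rbp4, for the retinol-binding protein that transthyretin carries, rose by 7.78 ± 0.63 (SE, limma adjusted p = 3.1e-05), and Alb, for albumin, by 9.01 ± 0.80 (SE, limma adjusted p = 5.7e-05, 2 of 3 TTF arrays above the limit). On the iHep arrays Rbp4 lay at 7.37 and 7.85 on replicates 1 and 2 and at 5.39 and 5.76 on 3 and 4, so the first pair was again higher. Against hepatocytes 3 of the 9 were higher and 2 lower in iHep. Dio3, for the deiodinase that inactivates thyroid hormone, was higher by 4.93 ± 1.21 (SE, limma adjusted p = 0.022, 3 of 4 hepatocyte arrays above the limit), and Dio2, for the activating one, by 3.23 ± 0.71 (SE, limma adjusted p = 0.013). Stra6, for the membrane receptor of retinol-binding protein, was lower, at -3.31 ± 0.57 (SE, limma adjusted p = 0.0041), as was Alb at -2.96 ± 0.74 (SE, limma adjusted p = 0.023). The higher Dio3 was no increase over TTF. Dio3 was not called in iHep against TTF, at -2.02 ± 1.31 (SE, limma adjusted p = 0.38). In hepatocytes Dio3 was called lower than in TTF, at -6.9 ± 1.31 (SE, limma adjusted p = 0.0065). Dio2 was not called against TTF in iHep (2.45 ± 0.77, SE, limma adjusted p = 0.059) or in hepatocytes (-0.78 ± 0.77, SE, limma adjusted p = 0.56).

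A list of 12 measured genes joined chromosome 16 neighbours and cystatins with genes tied to fetuin function: Mgp, the astacin proteases Mep1a, Mep1b and Astl, and Insr, for the insulin receptor. Of these 12, 3 were higher (Kng1, Kng2 and Insr) and 2 lower in iHep than in TTF (median 0.30). Mgp, for matrix Gla protein, a further inhibitor of calcification, was lower by the fit at -6.70 ± 1.94 (SE, limma adjusted p = 0.043), with 3 of 4 iHep arrays above the limit. Cst6, a cystatin gene, was lower at -2.84 ± 0.48 (SE, limma adjusted p = 0.0028). Against hepatocytes Kng1 alone of the 12 was called.

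Among 14 measured copper and iron partners of ceruloplasmin, 2 were higher and 1 lower in iHep than in TTF (median 0.61). Over all genes these shares were 6.86% and 6.52%. Trf was higher by 7.70 ± 1.49 (SE, limma adjusted p = 0.006) and Slc31a1, for the copper importer, by 1.28 ± 0.28 (SE, limma adjusted p = 0.012). Heph, for the membrane-bound relative of ceruloplasmin, was lower at -1.68 ± 0.50 (SE, limma adjusted p = 0.046). Atp7b, for the pump that loads copper into ceruloplasmin, was not called at 0.57 ± 0.34 (SE, limma adjusted p = 0.34), a gene added after its value was seen. Against hepatocytes 0 of the 14 were higher and 4 lower in iHep. They included Hamp, for the iron hormone hepcidin, at -7.86 ± 1.78 (SE, limma adjusted p = 0.015, 2 of 4 iHep arrays above the limit). Its mean in hepatocytes joins 5.82 and 3.19 on replicates 1 and 2 with -3.14 and -2.61 on 3 and 4, where the fibroblast sums were 3.76 and 3.02 against 7.54 and 7.13, and the part of the other cells was not tested. The 4 also included Slc40a1, for the iron exporter ferroportin, at -4.48 ± 0.57 (SE, limma adjusted p = 0.00081). Summed levels of 2 macrophage markers, Ptprc and Adgre1, were -3.48 to -0.08 on hepatocyte arrays and -6.51 to -3.82 on iHep arrays. The part of such cells in these differences was not tested.

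The list for bikunin held 12 genes: Itih1 to Itih5 of the inter-alpha-trypsin inhibitor family, the Kunitz genes Spint1 and Spint2, and Tnfaip6, Ptx3, Has1, Has2 and Has3. Of these 12, 4 were higher and 0 lower in iHep than in TTF (median 0.61). They included Spint2 at 8.77 ± 0.32 (SE, limma adjusted p = 2.8e-07) and Spint1 at 5.52 ± 0.66 (SE, limma adjusted p = 0.00035), both for membrane-bound Kunitz inhibitors. Unlike Ambp, the Itih genes that were called against hepatocytes differed in both directions. Itih4 was higher in iHep than in hepatocytes by 3.07 ± 0.74 (SE, limma adjusted p = 0.02) and Itih2 by 2.12 ± 0.52 (SE, limma adjusted p = 0.021). Itih3 was lower at -3.35 ± 0.73 (SE, limma adjusted p = 0.013).

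The lipocalins, the family of alpha-1-microglobulin, had 4 of 10 measured genes higher and 1 lower in iHep than in TTF (median 2.63). Lcn2, for an iron-sequestering lipocalin, was higher by 13.10 ± 0.88 (SE, limma adjusted p = 9.4e-06, 2 of 3 TTF arrays above the limit). Rbp4, given above, belongs to this list too. Apod, for an apolipoprotein of the family, was lower at -3.01 ± 0.56 (SE, limma adjusted p = 0.0048), with 3 of 4 iHep arrays above the limit. Between iHep and hepatocytes 0 of the 10 were called, against 6.25% higher and 7.5% lower over all genes.

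Of 14 measured liver transcription factors, 5 were higher and 0 lower in iHep than in TTF (median 1.74). In hepatocytes 11 of them were higher than in TTF (median 4.13). The labels do not name the 3 delivered factors, so RNA from the lentiviruses may be part of a listed factor's level in iHep. That part was not tested. Foxa2 was higher in iHep than in TTF by 7.96 ± 0.34 (SE, limma adjusted p = 5.9e-07, 1 of 3 TTF arrays above the limit) and Hnf4a by 4.95 ± 0.61 (SE, limma adjusted p = 0.00043). Against hepatocytes 1 was higher and 5 lower in iHep. Nr5a2, a nuclear receptor gene, was lower at -4.63 ± 0.73 (SE, limma adjusted p = 0.0025, 3 of 4 iHep arrays above the limit). Foxa1, for a FOXA factor of endoderm, was lower at -4.60 ± 0.41 (SE, limma adjusted p = 9.2e-05), with 2 of 4 iHep arrays above the limit. Cebpd, for a C/EBP factor, was higher by 1.51 ± 0.43 (SE, limma adjusted p = 0.039).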

How the data were processed

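RNA of 13 samples was labelled with Cy3 and hybridised to one-colour Agilent arrays, per the labels. The deposited table holds linear intensity values. The submitters' processing notes name Agilent Feature Extraction 10.5.1.1, and how background was treated is not given in the sources used here, nor are slide and scan. Array medians differed, so the log2 of its own 75th percentile was subtracted from each array. Of 45018 features, 33653 had 1 gene symbol in the platform table, 56 several and 11309 none, and the features of a gene were averaged. Saturation was not assessed.

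TTF, iHep and hepatocyte arrays entered 1 model in limma 3.58.1 under R 4.3.3, with moderated variances and Benjamini-Hochberg adjustment over 19087 genes. MEF and TTF + 3TF, with 1 array each, stayed out. The number of arrays limits the precision.

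Members, lists and rules were chosen with earlier results of these data known. All members were named. From each list came up to 2 called genes that rose most and up to 2 that fell most, in iHep against TTF and against hepatocytes. For each member the 3 genes most alike were named, leaving out provisional symbols. Hrg, Atp7b, Insr and the list genes and markers named to describe a list or a marker sum were added after their values were seen. Alternatives covered scaling, features, low values, the variance model, the arrays in the model and the replicate number.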

Additional observations from a re-analysis of the deposited data

How the results depend on the processing

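Each difference of the 5 genes was recomputed under 22 alternatives. All 5 genes were higher than TTF in each, with Ttr, Ahsg and Cp past the threshold every time in iHep and in hepatocytes, as was Ambp in hepatocytes. Ambp stayed called lower in iHep than in hepatocytes (-8.55 to -6.51), and Cp stayed uncalled there. Fetub and Ambp lost calls when TTF replicates were left out: without TTF replicate 3 there were 3 of 5 genes called in iHep against TTF, and the calls of Fetub (iHep and hepatocytes) and Ambp (iHep) ended, the last also without TTF replicate 2. Leaving out each array in turn gave 2.277 to 3.102 for Fetub and 2.638 to 3.822 for Ambp in iHep against TTF, and 2.508 to 3.205 for Fetub in hepatocytes against TTF. Against hepatocytes it gave -1.881 to 1.047 for Ahsg, above 0 only without iHep replicate 2, and -0.501 to 0.324 for Fetub, which was never called. The same step gave 3 to 5 called members in iHep against TTF. Counts over all genes were then 760 to 1412 higher and 751 to 1338 lower in iHep against TTF, and 732 to 1517 higher and 449 to 1024 lower in hepatocytes against TTF. The lowest of these 4 counts came without TTF replicate 3 and the next lowest without TTF replicate 2 (789, 785, 797 and 451). Without hepatocyte replicate 2 the last count was 606.

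The difference of Fetub between iHep and hepatocytes was 0.038 without a shift, 0.225 with a shift by the median and 0.202 without the iHep pair 3 and 4. Without the iHep pair 1 and 2 the difference from hepatocytes was -0.8 for Ttr and 2.533 for Ahsg, with 2 of 5 genes called. Without the pair 3 and 4 these values were 3.472 and -4.087, with 3 genes called. Without the pair 1 and 2, all-gene counts were 2016 higher and 1995 lower in iHep against TTF, and 1922 and 2218 against hepatocytes. A shift by the median gave 1923 lower genes in hepatocytes against TTF and 1832 higher in iHep against hepatocytes. It moved the median of all genes by -0.156 (iHep against TTF), -0.397 (hepatocytes against TTF) and 0.241 (iHep against hepatocytes). The cause of these changes was not tested. Deviations of same-numbered arrays correlated between -0.056 and 0.111. No differently numbered arrays were set beside them, so these values do not settle whether replicate numbers pair the samples. With a replicate block Ambp in iHep against TTF was 3.425 (limma adjusted p = 0.048), with 1135 higher and 1039 lower genes, and the block changed no call of the 5 genes.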
